A study of Homo sapiens with 12 samples.

Results

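The genes described here are the drug-metabolizing families of the liver: the cytochrome P450 families CYP1 to CYP4, the UDP-glucuronosyltransferases UGT1A and UGT2, the sulfotransferases (SULT) and the cytosolic and mitochondrial glutathione S-transferases (GST). They were chosen by name, as protein-coding genes with these symbol prefixes (steroid, vitamin A and other special P450s whose symbols share a prefix, such as CYP11, CYP17 or CYP24, were left out). The rule found 82 genes of the 19962 protein-coding genes and 60666 genes listed. They were counted in Huh7 cells, an established human hepatocellular carcinoma line, grown in glucose-rich medium and given either Molidustat at 25 µM or its solvent DMSO alone. RNA was taken at 24 h and at 48 h. The 4 groups (DMSO 24 h, Molidustat 24 h, DMSO 48 h and Molidustat 48 h) hold 3 libraries each. All groups are the same unmodified cell line, and a single tumour line stands here for liver cells. The study's methods speak of biological replicates and its record of repeated RNA extractions, so the p-values measure the spread between these libraries, which may be partly technical.

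Drug metabolism is commonly divided into phase I, in which P450 enzymes in the endoplasmic reticulum oxidize a compound, and phase II, in which transferases attach glucuronic acid, sulfate or glutathione to it and make it easier to excrete. In the liver many of these genes are held at high levels by hepatocyte transcription factors and are raised by sensors such as AHR, PXR (NR1I2), CAR (NR1I3) and NRF2 (NFE2L2). Molidustat blocks the prolyl hydroxylases through which HIF-α proteins are destroyed in the presence of oxygen, and ARNT, the partner of HIF-α, is also the partner of AHR.

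The treatment and the cell type were checked first. The HIF target BNIP3 was at 103 to 196 CPM in the DMSO 24 h libraries and at 975 to 1232 CPM in the Molidustat 24 h libraries, and it was called higher at both times, as was the glycolytic enzyme PGK1. Of the 6 hypoxia genes in this check, 5 were tested, 2 were called at each time, and 3 were higher at each time at an unadjusted p under 0.05 (the third was VEGFA). Levels are given as CPM, read counts relative to library totals that were scaled by edgeR's TMM factors. The reads come from the 3′ end of each transcript, so CPM was not divided by gene length and gives 1 read about the same weight in short and long genes. All 10 hepatocyte markers were counted, led by ALB at a mean of 2769 CPM, as was AFP, the fetal protein of hepatoma cells, at 7161 CPM. Markers of red blood cells were at 0 counts, and of the endothelial markers VWF had no count and CDH5 and KDR had 1 count each, whereas PECAM1 had 103 counts (1.72 CPM). Of the leukocyte markers, CD3E and CD79A were at 0 and PTPRC had 7 counts, whereas LYZ was at 130.4 CPM. Of the cholangiocyte markers, KRT7 and CFTR had 9 and 14 counts, whereas SOX9 was at 350.1 CPM, KRT19 at 56.3 CPM and EPCAM at 47.8 CPM, each with a count in all 12 libraries. The most abundant of the fibroblast markers, LUM, was at 3.10 CPM.

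A single library stood apart from the rest. DMSO 48 h replicate 2 had 1499273 counts on genes against 2312396 to 9179389 in the 11 others, and 50.4% of its listed reads were counted on no feature (17.1 to 25.6% in the others). The members took 0.0493% of its gene counts against 0.190 to 0.308% in the others, and 24 members had a count there against 31 to 46. Its scaling factor was 0.629, so that 1 count was worth 1.06 CPM there and 0.103 to 0.429 CPM in the others. It stayed in the fit, and the plot of log2 fold changes shows the values without it for all members tested.

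Of the 82 members, 56 had a count in at least 1 library, 15 in all 12 libraries, and 26 in none. With 3 counts as the limit that a count of 0 allows, a member without a count lay below 0.0516 CPM over the 12 libraries together. This limit covers counting error only and holds for reads that were counted. Most members without a count were P450s: 19 of the 36 CYP genes had none, among them CYP3A4, the main drug-oxidizing P450 of the adult liver, CYP2E1, which oxidizes ethanol and paracetamol, CYP2C8, CYP2C19 and CYP2A6. CYP2D6 had 1 count in all, CYP1A2 had 3 and CYP2B6 24. Of the GST genes, GSTA3, GSTA5, GSTM5 and GSTT4 had none, and of the sulfotransferases SULT1A4, SULT1C3 and SULT4A1. Some of these transcripts share 3′ sequence with other genes, so that a count of 0 is uncertain for them: of the 50-base words in the last 500 bases, 99.3% were shared for SULT1A4, 55.4% for CYP2A6 and 49.9% for CYP2A7, and for CYP2D6 70.3%. For CYP3A4, CYP2E1, CYP2C8 and CYP2C19 the share was 0%. However, 23.4% of the CYP2C19 exon bases overlap another gene on the same strand, and 25.4% of those of CYP2E1 overlap on the opposite strand. Since the strand setting is not known, a count of 0 is less certain for CYP2C19 and CYP2E1 as well.

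A further 21 members were counted but fell below edgeR's filter on low counts, with at most 68 counts over the 12 libraries (SULT1A3). The 35 members that passed the filter were 8 CYP, 10 UGT, 6 SULT and 11 GST genes. In all following tests these 35 stand for the members, and the other 47 were not tested.

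**Figure D1:**
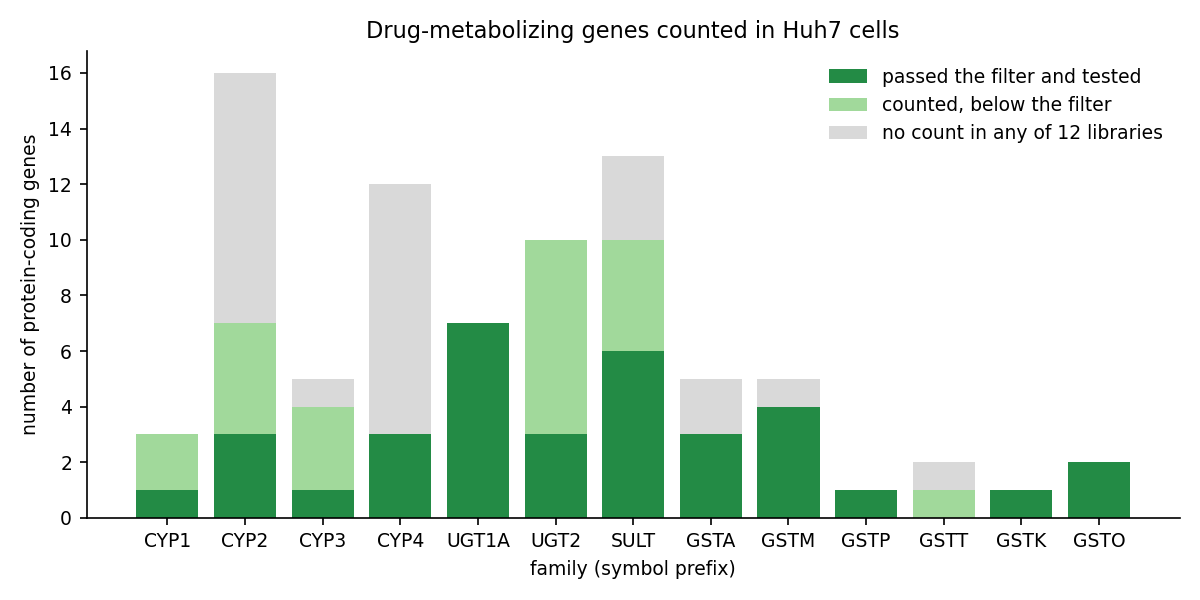
Number of protein-coding genes in each family (vertical axis) by symbol prefix (horizontal axis), split into genes tested, genes counted but below the filter, and genes with no count in any of 12 libraries. All 7 UGT1A genes were tested, whereas 9 of 16 CYP2 and 9 of 12 CYP4 genes had no count.

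Glutathione S-transferases made up 90.5% of the 131882 member counts, and 1 gene, GSTP1, made up 64.1%. The omega class (GSTO1 and GSTO2) took 17.3%, GSTK1 5.87%, and all 36 CYP genes together 2.31%. As a share of the members' summed CPM, GSTP1 took 57.9 to 73.5% in 11 libraries and 27.5% in DMSO 48 h replicate 2. The summed level of all members was 2071, 1896 and 2164 CPM in the DMSO 24 h libraries and 2165, 3065 and 2322 CPM in the Molidustat 24 h libraries. After 48 h it was 1763, 787 and 2075 CPM with DMSO and 2133, 3012 and 2586 CPM with Molidustat. The Molidustat libraries lay above the DMSO libraries at both times, but the nearest pairs, 2164 against 2165 CPM at 24 h and 2075 against 2133 CPM at 48 h, lay closer together than the libraries within either group. Without GSTP1 and GSTO1 the groups overlapped: 332 to 410 CPM against 366 to 424 CPM at 24 h, and 409 to 466 CPM against 413 to 517 CPM at 48 h. DMSO 48 h replicate 2 lay at 459.9 CPM in this reduced sum, within the range of its group.

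**Figure D2:**
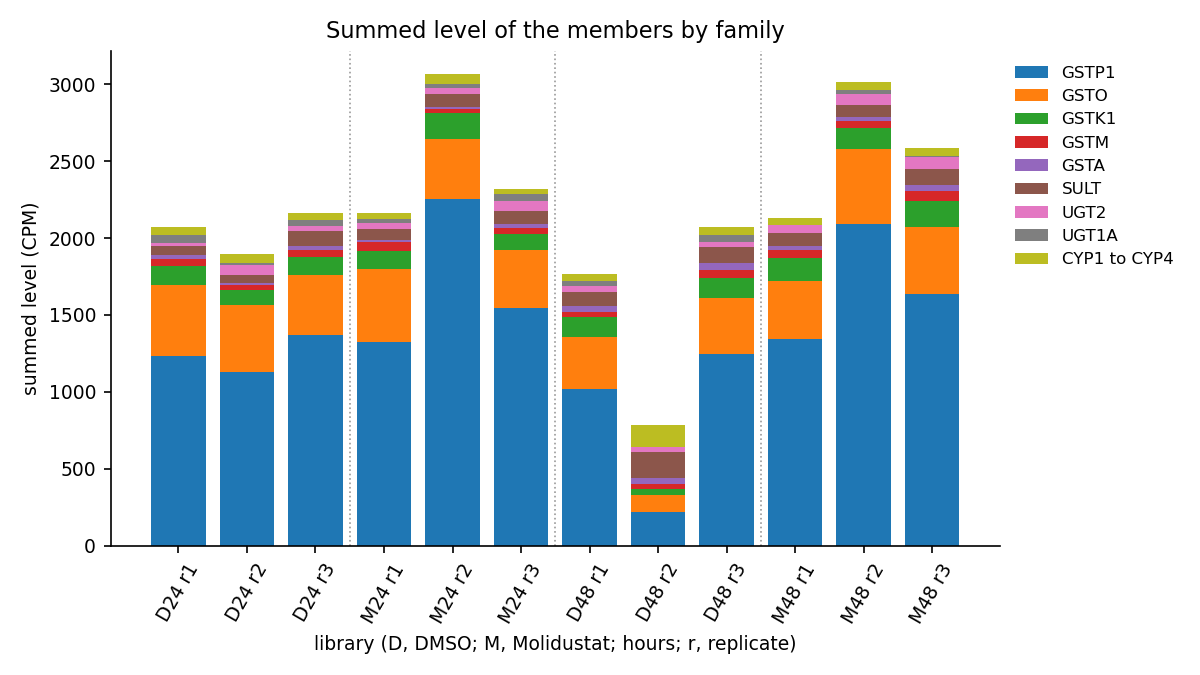
Summed CPM of the members (vertical axis) in each of 12 libraries (horizontal axis; D, DMSO; M, Molidustat; hours; r, replicate), stacked by family. The 7 UGT1A genes share reads, so their layer holds the same reads up to 7 times. GSTP1 forms the largest layer in every library, and DMSO 48 h replicate 2 has the lowest total, 787 CPM.

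No member was called changed with Molidustat. To be called, a gene needed a log2 fold change beyond 1 and an adjusted p under 0.05 by edgeR's quasi-likelihood test, fitted to all 14274 genes that passed the filter. At 24 h 0 of 35 members were called, against 0.231% of all genes tested, and at 48 h 0 of 35, against 0.231%. Limma-voom with sample quality weights also called 0 members at each time, where it called 0.448% of all genes at 24 h and 1.95% at 48 h. DESeq2 called 1 member at 24 h (UGT2B7, higher), where it called 1.03% of the genes it gave an adjusted p, and 0 at 48 h, where it called 2.88% and gave 24 of the 35 members an adjusted p. At an unadjusted p under 0.05, 2 members passed at 24 h (UGT2B7 higher, SULT2A1 lower), where 5.25% of all genes did, and 4 at 48 h (GSTM3 and UGT2B4 higher, GSTA2 and SULT2A1 lower), where 13.3% did. Without DMSO 48 h replicate 2, the 48 h members at that level were GSTM3 and SULT1C4 (higher) and GSTA1 and GSTA2 (lower), while UGT2B4 and SULT2A1 no longer passed, and SULT1C4 joined the 24 h members. The share of all genes at an unadjusted p is not given here for the fit without that library, so these members are not set against one. In that fit 0 members were called at either time, where edgeR called 0.761% of all genes at 24 h and 0.347% at 48 h.

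Molidustat and DMSO libraries did not overlap in 3 members at 24 h (CYP3A5, GSTM2 and SULT1C4, all higher), where 12.3% of all genes tested were so separated. At 48 h this held for 11 members, where the share of all genes was 18.0%. Of these, 7 were higher with Molidustat (GSTP1, GSTO1, GSTK1, GSTM3, SULT1A2, UGT2B4 and UGT2B7) and 4 lower (CYP1A1, GSTA2, SULT2A1 and UGT2B11).

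The median log2 fold change over the 35 members was 0.09 at 24 h and -0.26 at 48 h, and over all genes tested 0.02 and 0.01. The 7 UGT1A genes enter this median with nearly the same reads, and without them the medians over 28 members were 0.07 and -0.10. The precision was limited: the median SE of a member's log2 fold change was 1.05 at 24 h and 1.07 at 48 h, against 0.54 at each time over all genes tested. A change of less than a few fold was therefore not detectable in most members with these libraries.

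**Figure D3:**
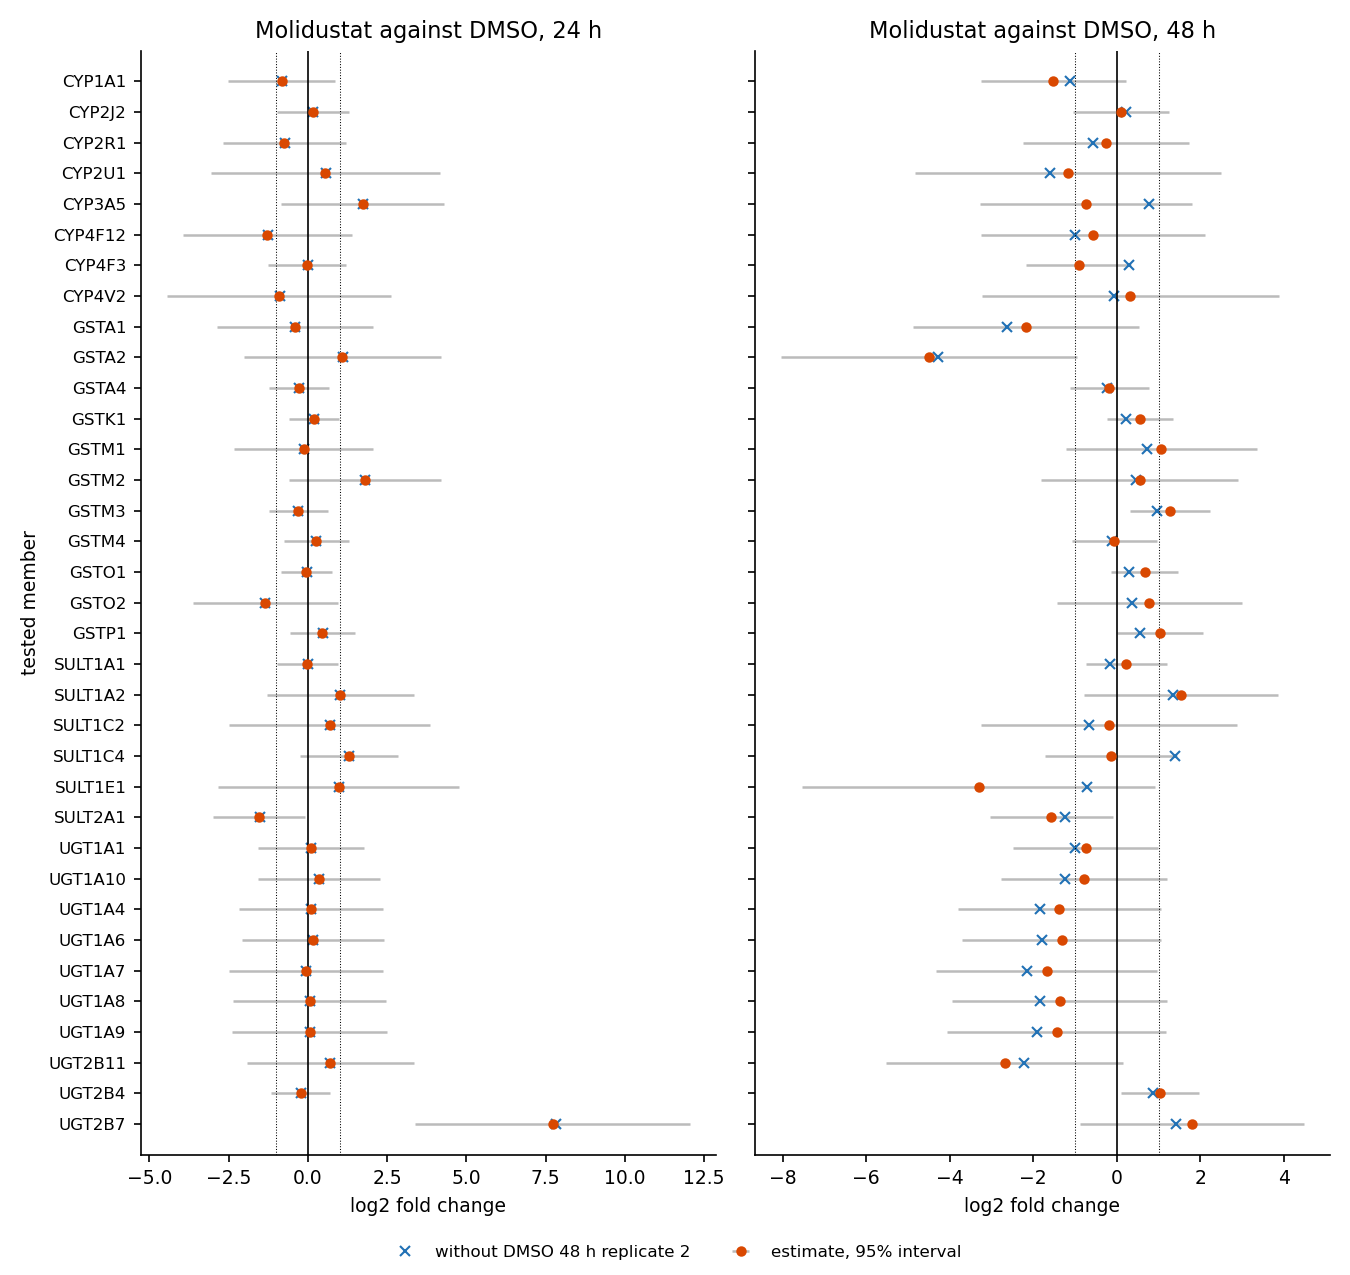
Log2 fold change (horizontal axis) of the 35 tested members (vertical axis) with Molidustat at 24 h (left) and 48 h (right). Circles are estimates with 95% intervals, crosses the estimates without DMSO 48 h replicate 2, and dotted lines mark -1 and 1. The interval is widest for UGT2B7 at 24 h and for SULT1E1 at 48 h, and narrowest for GSTK1 at both times.

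Among the P450s, 8 could be tested, and all were sparse. CYP1A1 (ENSG00000140465, chr15:74719542-74725536), the AHR target that oxidizes polycyclic hydrocarbons, was at 11.3, 3.47 and 8.47 CPM in the DMSO 24 h libraries and at 1.79, 9.35 and 1.54 CPM in the Molidustat 24 h libraries. In the 48 h libraries it was at 9.08, 20.2 and 9.61 CPM with DMSO and at 8.09, 1.72 and 3.01 CPM with Molidustat. The groups overlapped at 24 h and not at 48 h, where the log2 difference was -1.52 ± 0.82 (SE; edgeR adjusted p = 0.455) and -1.11 without DMSO 48 h replicate 2. The other CYP1 genes, CYP1A2 and CYP1B1, had 3 and 15 counts in all.

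CYP2J2, an epoxygenase of arachidonic acid, was the most abundant CYP2 gene and differed little between groups. Its level was 9.67 ± 1.04 CPM (SD, n = 3) with DMSO and 10.9 ± 6.10 CPM with Molidustat at 24 h, and 10.5 ± 2.13 and 11.1 ± 4.81 CPM at 48 h. CYP2R1, a vitamin D hydroxylase, lay between 1.06 and 10.8 CPM over all libraries, with log2 differences of -0.74 ± 0.91 at 24 h and -0.26 ± 0.93 at 48 h (SE). Neither gene was separated at either time.

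CYP3A5, the only CYP3 gene that passed the filter, is a close relative of CYP3A4. It was at 0, 1.16 and 3.72 CPM with DMSO and at 3.94, 4.73 and 7.88 CPM with Molidustat at 24 h. With 48 h of treatment it was at 4.47, 19.2 and 0.620 CPM with DMSO and at 1.35, 3.43 and 8.27 CPM with Molidustat. The 24 h libraries did not overlap, with a log2 difference of 1.72 ± 1.21 (SE; edgeR adjusted p = 0.999). The 48 h difference was -0.74 with all libraries and 0.78 without DMSO 48 h replicate 2, which held 18 counts of the gene.

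CYP4F3, a hydroxylase of leukotrienes, was the most abundant P450. It was at 12.6, 13.9 and 19.6 CPM in the DMSO 24 h libraries and at 11.8, 22.0 and 11.3 CPM in the Molidustat 24 h libraries. At 48 h it was at 14.1, 90.5 and 19.8 CPM with DMSO and at 24.0, 24.5 and 14.5 CPM with Molidustat. The DMSO 48 h replicate 2 value of 90.5 CPM is the highest of any P450, and without this library the 48 h log2 difference went from -0.91 to 0.29. CYP4F12 of the same subfamily was at 0 to 5.48 CPM, with log2 differences of -1.29 ± 1.25 at 24 h and -0.57 ± 1.26 at 48 h (SE), the last -1.01 without that library. Of the remaining P450s tested, CYP2U1 and CYP4V2 had a count in 7 libraries each.

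The UGT1A genes sit in 1 locus on chromosome 2, where each has its own first exon and all share the remaining exons. Their 3′ ends, which these libraries read, are therefore the same. Of the 50-base words in the last 500 bases of the UGT1A1 transcript, 100% were also found in transcripts of other genes of the locus (GENCODE release 44). The counts were alike as well: all 7 genes had 24 counts in DMSO 24 h replicate 3 and 34 counts in Molidustat 24 h replicate 2, and 6 of the 7 had 29 counts in DMSO 24 h replicate 1. They differed several fold in DMSO 24 h replicate 2, with 1 to 6 counts, in Molidustat 24 h replicate 1, with 5 to 19, in Molidustat 48 h replicate 1, with 1 to 3, and in Molidustat 48 h replicate 3, with 2 to 17. Their totals over 12 libraries lay between 215 (UGT1A7) and 286 (UGT1A1). The setting by which shared reads were counted is not given in the sources used here, and the 7 genes cannot be taken as separate measurements.

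**Figure D4:**
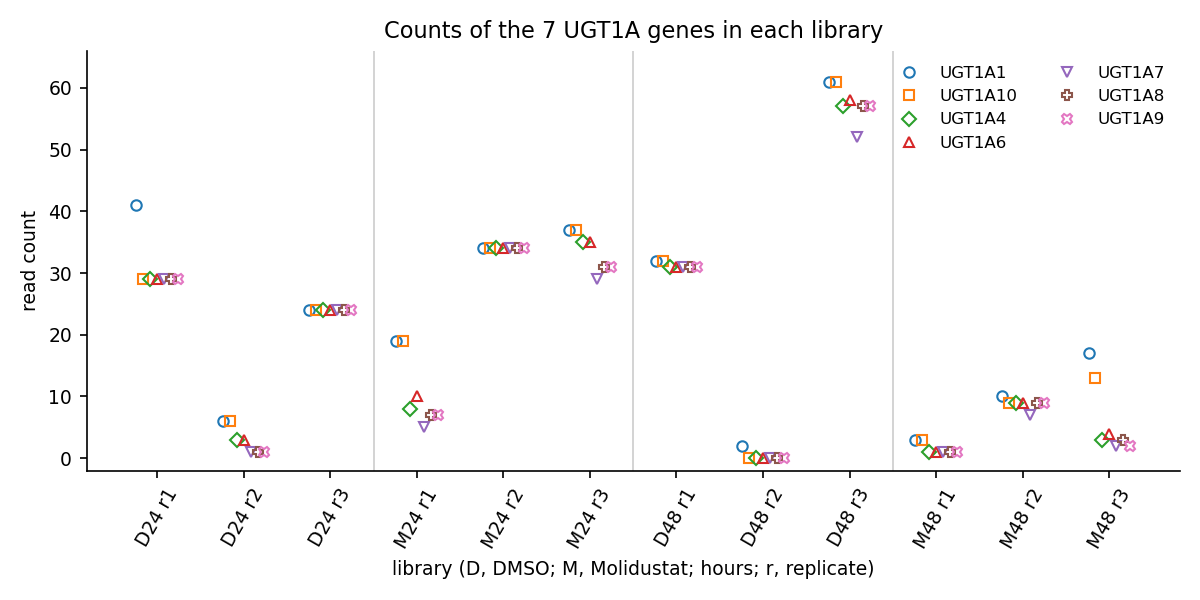
Read counts (vertical axis) of the 7 UGT1A genes in each library (horizontal axis; D, DMSO; M, Molidustat; hours; r, replicate). The symbols of the 7 genes lie on or near each other in most libraries, they spread from 1 to 6 counts in DMSO 24 h replicate 2, from 5 to 19 in Molidustat 24 h replicate 1 and from 2 to 17 in Molidustat 48 h replicate 3, and DMSO 48 h replicate 3 has the highest counts.

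UGT1A1 (ENSG00000241635, chr2:233760270-233773300), the enzyme that conjugates bilirubin, was at 9.42, 2.31 and 4.96 CPM with DMSO and at 6.81, 4.13 and 7.11 CPM with Molidustat at 24 h. After 48 h it was at 4.34, 2.13 and 6.30 CPM with DMSO and at 0.674, 4.29 and 3.19 CPM with Molidustat. The groups overlapped at both times, with log2 differences of 0.09 ± 0.79 at 24 h and -0.75 ± 0.82 at 48 h (SE), or -1.01 at 48 h without DMSO 48 h replicate 2. UGT1A10, next in abundance, gave 0.35 ± 0.90 and -0.79 ± 0.93, and -1.24 at 48 h without that library. Over the 7 genes the difference ranged from -0.07 to 0.35 at 24 h and from -1.68 to -0.75 at 48 h, or -2.15 to -1.01 without that library.

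UGT2B4 (ENSG00000156096, chr4:69480165-69526014), which conjugates bile acids, was the most abundant UGT. It was at 17.2, 65.1 and 33.5 CPM with DMSO and at 26.9, 24.9 and 46.3 CPM with Molidustat at 24 h. In the 48 h libraries it was at 29.96, 19.2 and 30.3 CPM with DMSO and at 45.8, 51.9 and 67.6 CPM with Molidustat. The 48 h libraries did not overlap, and the log2 difference there was 1.03 ± 0.44 (SE; edgeR adjusted p = 0.324), or 0.86 without DMSO 48 h replicate 2. At 24 h it was -0.23 ± 0.44.

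UGT2B7 (ENSG00000171234, chr4:69051363-69112987), which conjugates morphine and many other drugs, had the largest estimated difference of any member. It had no count in the 3 DMSO 24 h libraries, and 0, 71 and 38 counts in the Molidustat 24 h libraries. At 48 h it had 24, 0 and 12 counts with DMSO and 15, 20 and 34 counts with Molidustat. At 24 h the groups overlapped at 0, since Molidustat replicate 1 also had no count. At 48 h the counts overlapped, and the CPM did not, but only by 3.25 CPM in DMSO replicate 1 against 3.37 CPM in Molidustat replicate 1. Pooled over the 3 libraries, the Molidustat 24 h level of 6.72 CPM was at least 26.4-fold higher than the 0.254 CPM that 3 counts over the DMSO 24 h group would give, a bound that rests on replicates 2 and 3 and on counting error only. The edgeR adjusted p at 24 h was 0.265, and 0.0734 without DMSO 48 h replicate 2, whereas DESeq2 gave 0.00954. At 48 h the log2 difference was 1.79 ± 1.24 (SE; edgeR adjusted p = 0.597).

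UGT2B11 was at 2.07, 2.31 and 2.89 CPM with DMSO and at 11.1, 0.121 and 1.15 CPM with Molidustat at 24 h. With 48 h of treatment it was at 4.47, 9.58 and 3.62 CPM with DMSO and at 0.674, 0 and 1.69 CPM with Molidustat, which did not overlap. The log2 differences were 0.71 ± 1.24 and -2.69 ± 1.33 (SE; edgeR adjusted p = 0.999 and 0.405), and the 48 h value was -2.22 without DMSO 48 h replicate 2. The other 7 UGT2 genes, which include UGT2B10, UGT2B15 and UGT2B17, were below the filter with at most 48 counts each (UGT2A3).

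Among the sulfotransferases, SULT2A1 (ENSG00000105398, chr19:47870467-47886315), which sulfates bile acids and the steroid DHEA, had lower estimates of similar size at both times. It was at 18.6, 24.7 and 37.4 CPM with DMSO and at 0.717, 6.55 and 19.8 CPM with Molidustat at 24 h. At 48 h it was at 30.2, 64.9 and 40.4 CPM with DMSO and at 7.64, 17.2 and 20.3 CPM with Molidustat. The groups overlapped at 24 h by 1 library of each and did not overlap at 48 h. The log2 difference was -1.54 ± 0.69 at 24 h (SE; edgeR adjusted p = 0.911) and -1.56 ± 0.69 at 48 h (edgeR adjusted p = 0.342), or -1.25 at 48 h without DMSO 48 h replicate 2. Both values failed the correction over all genes.

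SULT1C4, a sulfotransferase best known from fetal tissue, was at 25.5, 3.85 and 24.4 CPM with DMSO and at 43.7, 53.9 and 36.0 CPM with Molidustat at 24 h. After 48 h it was at 14.8, 76.7 and 5.58 CPM with DMSO and at 32.1, 26.2 and 22.7 CPM with Molidustat. The 24 h libraries did not overlap (log2 difference 1.29 ± 0.73, SE; edgeR adjusted p = 0.999). At 48 h the difference was -0.13 with all libraries and 1.40 without DMSO 48 h replicate 2, which had the highest value of all 12.

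SULT1A1, the main phenol sulfotransferase of the liver, was at 19.5 ± 4.55 and 19.3 ± 2.25 CPM (SD, n = 3) with DMSO and Molidustat at 24 h, and at 31.9 ± 20.3 and 38.7 ± 10.0 CPM at 48 h. Of the 50-base words in the last 500 bases of the transcript, SULT1A1 shares 27.1% with other genes, and its close copies SULT1A2 and SULT1A3 share 75.4% and 100%, so that their counts are uncertain. SULT1A2 was at 1.71 ± 0.58 CPM with DMSO and 5.28 ± 3.11 CPM with Molidustat at 48 h. The log2 differences of SULT1C2 were 0.68 ± 1.49 at 24 h and -0.19 ± 1.44 at 48 h, and those of SULT1E1, the estrogen sulfotransferase, 0.97 ± 1.78 and -3.31 ± 1.99 (SE). Without DMSO 48 h replicate 2, the 48 h values were -0.66 for SULT1C2 and -0.70 for SULT1E1, and that of SULT1A1 went from 0.23 to -0.16.

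GSTP1 (ENSG00000084207, chr11:67583742-67586656), the pi class transferase that is low in normal hepatocytes and common in tumour cells, was at 1232, 1128 and 1371 CPM with DMSO and at 1327, 2253.5 and 1543 CPM with Molidustat at 24 h. In the 48 h libraries it was at 1021, 216 and 1244 CPM with DMSO and at 1342, 2094 and 1634 CPM with Molidustat. The groups overlapped at 24 h and did not at 48 h. The log2 difference was 0.46 ± 0.48 at 24 h and 1.03 ± 0.49 at 48 h (SE; edgeR adjusted p = 0.999 and 0.376). Without DMSO 48 h replicate 2, the 48 h value was 0.57 (edgeR adjusted p = 0.761).

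GSTO1 (ENSG00000148834, chr10:104235356-104267459), an omega class enzyme with thiol transferase activity, was at 462, 435 and 384 CPM with DMSO and at 473, 388 and 379 CPM with Molidustat at 24 h. With 48 h of treatment it was at 333, 111 and 365 CPM with DMSO and at 378, 477 and 435 CPM with Molidustat. The 48 h libraries did not overlap, but the nearest pair, 365 CPM with DMSO and 378 CPM with Molidustat, lay close together. The log2 difference was -0.05 ± 0.38 at 24 h and 0.67 ± 0.38 at 48 h (SE), and 0.29 at 48 h without DMSO 48 h replicate 2. GSTO2, its neighbour, was at most at 5.58 CPM, with log2 differences of -1.35 ± 1.08 and 0.78 ± 1.05, the last 0.36 without that library.

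GSTK1, the kappa class enzyme of mitochondria and peroxisomes, was at 114 ± 12.6 CPM with DMSO and 129.7 ± 37.5 CPM with Molidustat at 24 h (SD, n = 3). At 48 h it was at 127, 43.6 and 130.3 CPM with DMSO and at 144, 138 and 168 CPM with Molidustat. The 48 h difference of 0.56 ± 0.37 on the log2 scale (SE) went to 0.21 without DMSO 48 h replicate 2. GSTP1, GSTO1 and GSTK1 thus each had their lowest value of all 12 libraries in DMSO 48 h replicate 2.

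The alpha and mu class genes lie in clusters of close copies. The last 30 coding bases of the closest copies are shown; capitals mark bases that differ from the first gene of each class, compared position by position from the stop codon without alignment (GENCODE release 44 transcripts, GRCh38, coding strand, 5′ to 3′, stop codon last).
GSTA1: gaagaagcaaggaagattttcaggttttaa
GSTA2: gaagaaTcaaggaagattttcaggttttaa
GSTM1: tcaaagatggctgtctggggcaacaagtag
GSTM2: Acaaagatggctgtctggggcaacaagtag
GSTM4: AcaaGgGtggctgtctggggcaacaagtaA

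GSTA2 differs from GSTA1 at 1 base here, and 14.2% of the 50-base words in the last 500 bases of each transcript are also found in the other. GSTM1 and GSTM2 share 95.3% of theirs with other genes of the class, so reads could go to either. GSTM3 shares none of its words.

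GSTM3 (ENSG00000134202, chr1:109733932-109741038), a mu class enzyme, was at 22.0, 16.9 and 21.7 CPM with DMSO and at 24.0, 10.6 and 15.2 CPM with Molidustat at 24 h. After 48 h it was at 14.2, 4.26 and 14.4 CPM with DMSO and at 26.5, 27.9 and 30.6 CPM with Molidustat. The groups overlapped at 24 h and not at 48 h, where every Molidustat library was also above every Molidustat 24 h library. The log2 difference was -0.30 ± 0.44 at 24 h and 1.28 ± 0.45 at 48 h (SE; edgeR adjusted p = 0.999 and 0.235). Without DMSO 48 h replicate 2, the 48 h value was 0.97 (edgeR adjusted p = 0.660).

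GSTM4 was at 14.2 ± 4.39 and 17.5 ± 10.6 CPM (SD, n = 3) with DMSO and Molidustat at 24 h, and at 25.1 ± 4.93 and 24.1 ± 5.41 CPM at 48 h. GSTM2 was at 1.15, 0 and 1.03 CPM with DMSO and at 3.23, 2.67 and 2.31 CPM with Molidustat at 24 h, which did not overlap. Its log2 difference was 1.80 ± 1.13 (SE; edgeR adjusted p = 0.999), and that of GSTM1, with which it shares sequence, was -0.14 ± 1.03.

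GSTA2 (ENSG00000244067, chr6:52750087-52763475), an alpha class enzyme of the liver, had 11, 0 and 1 counts with DMSO and 13, 14 and 0 counts with Molidustat at 24 h. At 48 h it had 45, 10 and 69 counts with DMSO and 4, 0 and 0 counts with Molidustat. The 48 h groups did not overlap, at 6.10, 10.6 and 7.13 CPM against 0.899, 0 and 0 CPM, and the DMSO 48 h libraries also lay above all DMSO 24 h libraries. The log2 difference was 1.08 ± 1.47 at 24 h and -4.50 ± 1.67 at 48 h (SE; edgeR adjusted p = 0.254), or -4.28 without DMSO 48 h replicate 2. GSTA1, its near copy, gave -0.42 ± 1.16 and -2.17 ± 1.27, the last -2.64 without that library.

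GSTA4, which conjugates aldehydes from lipid peroxidation, was at 19.98, 11.2 and 22.5 CPM with DMSO and at 6.45, 14.7 and 22.7 CPM with Molidustat at 24 h. In the 48 h libraries it was at 29.3, 27.7 and 31.2 CPM with DMSO and at 22.7, 20.2 and 35.0 CPM with Molidustat. The groups overlapped at both times, with log2 differences of -0.29 ± 0.45 and -0.18 ± 0.45 (SE).

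**Figure D5:**
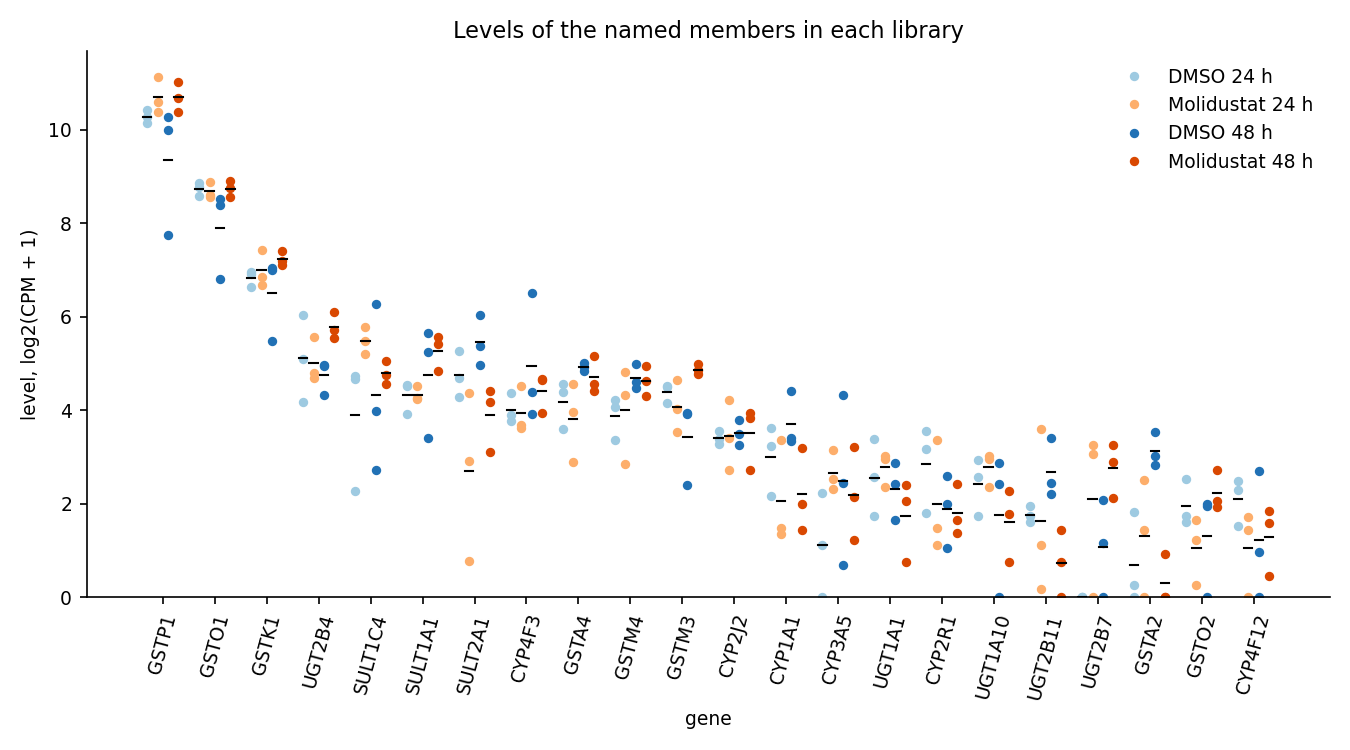
Level of the 22 members chosen for description by abundance or p-value, as log2(CPM + 1) (vertical axis), by gene (horizontal axis, in order of mean CPM). Each point is a library, each colour a group, and each short line the mean of 3 libraries on this scale. GSTP1 stands above all others in every library, and the DMSO 48 h points of GSTP1, GSTO1 and GSTK1 include 1 low value each.

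The design also allowed the response to be compared between the times. No member was called for the difference between the 48 h and the 24 h response (0 of 35, with 0% of all genes called), and by DESeq2 and limma-voom also 0, with 0.0569% and 0% of genes called. At an unadjusted p under 0.05, 3 members passed, where 6.78% of all genes did. The difference of the responses was 1.58 ± 0.63 for GSTM3, -5.58 ± 2.21 for GSTA2 and -5.92 ± 2.39 for UGT2B7, on the log2 scale with SE and an edgeR adjusted p of 0.728 each. The UGT2B7 value rests on the DMSO 24 h group without a count.

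From 24 h to 48 h in DMSO, 0 of 35 members were called by edgeR, DESeq2 and limma-voom, where edgeR called 0.00701% of all genes, DESeq2 0.284% and limma-voom 0.0140%, and 2 passed at an unadjusted p under 0.05 (CYP4F3 and UGT2B7, both higher), where 8.14% did. The CYP4F3 value of 1.35 ± 0.60 (SE) went to 0.16 without DMSO 48 h replicate 2. From 24 h to 48 h in Molidustat, 0 of 35 were called by each tool, where edgeR called 0% of all genes, DESeq2 0.0853% and limma-voom 0.00701%, and 1 passed at an unadjusted p under 0.05, where 4.58% did. This was SULT1A1, with a log2 difference of 1.01 ± 0.46 (SE; edgeR adjusted p = 0.9998) and no overlap between the times. In DMSO its log2 difference from 24 h to 48 h was 0.76 ± 0.46 (SE), and 1.17 without DMSO 48 h replicate 2, where it also passed at that level.

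The genes that sense foreign compounds and drive the families were counted in part. Of 17 such genes, 14 were tested. AHR was at a mean of 41.7 CPM, ARNT at 53.1 CPM and NFE2L2 at 272 CPM, while NR1I2 and NR1I3 had 6 and 15 counts in all. None of the 14 was called by edgeR at either time. NR0B2, a repressor that acts on nuclear receptors, was at 2.53, 0.385 and 3.51 CPM with DMSO and at 9.68, 9.83 and 12.3 CPM with Molidustat at 24 h. With 48 h of treatment it was at 0.407, 0 and 3.41 CPM with DMSO and at 18.4, 17.2 and 15.8 CPM with Molidustat. Its libraries did not overlap at either time, with log2 differences of 2.23 ± 0.81 and 3.39 ± 0.85 (SE; edgeR adjusted p = 0.681 and 0.153). DESeq2 and limma-voom called it higher at 48 h.

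ONECUT1, a hepatocyte transcription factor, was at 63.7, 68.1 and 54.7 CPM with DMSO and at 140.4, 142 and 134 CPM with Molidustat at 48 h. These did not overlap (log2 difference 1.16 ± 0.30, SE; edgeR adjusted p = 0.173), and DESeq2 and limma-voom called it higher (DESeq2 adjusted p = 0.0125). The 24 h difference was 0.68 ± 0.30. HNF4A, which holds many hepatocyte genes on, was at 70.5, 1237 and 209 CPM with DMSO and at 156, 145 and 108 CPM with Molidustat at 48 h. Its log2 difference of -1.88 ± 0.82 (SE) went to -0.05 without DMSO 48 h replicate 2.

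Over the 5 lists of partner genes (sensors, P450 partners, cofactor supply, other phase I and II enzymes, and drug transporters), 71 of 87 genes were tested and 0 were called by edgeR at either time, where it called 0.231% of all genes at each time. DESeq2 called 3 higher at 48 h (ABCC6, NR0B2 and ONECUT1), and limma-voom called the same 3 higher and ABCC4 lower. Of all genes with an adjusted p at 48 h, DESeq2 called 2.88% and limma-voom 1.95%. At an unadjusted p under 0.05, 3 genes were higher and 1 lower at 24 h, where 5.25% of all genes passed, and 6 higher and 6 lower at 48 h, where 13.3% passed. The list medians of the log2 difference lay between -0.17 and 0.16 at 24 h and between -0.26 and 0.34 at 48 h.

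P450 enzymes need electrons and heme. All 10 genes of this list were tested, with CYB5R3 at 336 CPM, POR, the electron donor of P450s, at 80.7 CPM and CYB5A at 211 CPM. CYB5A was higher at 48 h at an unadjusted p under 0.05 (log2 difference 0.92 ± 0.41, SE), with 0.52 without DMSO 48 h replicate 2. Of the 13 genes that make UDP-glucuronic acid, sulfate donor and glutathione, 3 were lower at 48 h at that level. UGDH, which makes UDP-glucuronic acid, was at 2367 CPM in DMSO 48 h replicate 2 and at 239 to 1089.9 CPM in the 11 others, and its log2 difference of -1.76 went to -0.22 without that library. SLC35D1 went from -1.26 to -0.20. PAPSS2, which makes the sulfate donor PAPS, was at 13.6, 16.6 and 21.7 CPM with DMSO and at 32.3, 31.2 and 37.5 CPM with Molidustat at 24 h (log2 difference 0.96 ± 0.44, SE; edgeR adjusted p = 0.923).

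Of 30 other enzymes, 21 were tested, led by MGST1, a membrane-bound glutathione transferase, at 576 CPM. AKR1C1, a ketosteroid reductase, was at 73.5, 84.0 and 72.1 CPM with DMSO and at 46.6, 29.1 and 58.8 CPM with Molidustat at 24 h, a log2 difference of -0.77 ± 0.34 (SE; edgeR adjusted p = 0.904). At 48 h MGST3 was higher (1.08 ± 0.46, but 0.71 and no longer past that level without DMSO 48 h replicate 2) and AKR1B10 lower at an unadjusted p under 0.05, the last with no count in the Molidustat 48 h libraries and at most 1.65 CPM with DMSO. Of 17 transporters, 13 were tested, and SLC22A9 was the most abundant at 69.9 CPM. ABCC6 was at 10.98, 20.2 and 14.8 CPM with DMSO and at 37.3, 33.0 and 32.7 CPM with Molidustat at 48 h (log2 difference 1.21 ± 0.37, SE; edgeR adjusted p = 0.203). ABCC4, which exports organic anions, differed by -1.72 ± 0.64 at 48 h (edgeR adjusted p = 0.254).

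The hepatocyte markers also lay apart between the groups. Summed over the 10 markers, their level was 9397, 9683 and 12555 CPM in the DMSO 24 h libraries and 14244, 15127 and 17296 CPM in the Molidustat 24 h libraries. At 48 h it was 11395, 5673 and 13119 CPM with DMSO and 19579.5, 22712 and 22889 CPM with Molidustat. The groups did not overlap at either time. None of the 10 was called by edgeR, and at an unadjusted p under 0.05, 3 were higher at 24 h, where 5.25% of all genes passed in either direction, and 7 were higher and 1 lower at 48 h, where 13.3% passed. Without DMSO 48 h replicate 2, HNF4A (the lower one, then at -0.05) and TTR no longer passed at 48 h, while APOB was lower at that level (log2 difference -0.67). DESeq2 called SERPINA1 higher at 24 h (adjusted p = 0.0315), and at 48 h SERPINA1, TF, AHSG and APOA1 (adjusted p = 0.000351, 0.00569, 0.0064 and 0.0259). Limma-voom called TF higher at 24 h and the same 4 genes at 48 h. Of all genes with an adjusted p, DESeq2 called 1.03% at 24 h and 2.88% at 48 h, and limma-voom 0.448% and 1.95%. Without DMSO 48 h replicate 2, edgeR called TF (adjusted p = 0.00163 at 24 h and 0.0351 at 48 h) and SERPINA1 (0.0149 and 0.0474), where it called 0.761% of all genes at 24 h and 0.347% at 48 h.

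Of the markers of other cell types, none was called by edgeR. Of the 3 cholangiocyte markers tested, SOX9 was lower at 48 h at an unadjusted p under 0.05, by a log2 difference of -1.97 ± 0.46 (SE; edgeR adjusted p = 0.125), or -1.11 without DMSO 48 h replicate 2. KRT19 and EPCAM were higher at that level, by 1.23 ± 0.53 and 0.96 ± 0.43 (edgeR adjusted p = 0.324 and 0.347), or 0.78 and 0.62 without that library, and the median of the 3 was 0.96. Of the 2 leukocyte markers tested, LYZ differed by -1.17 ± 0.30 and CD14 by 2.11 ± 1.01 at 48 h (edgeR adjusted p = 0.175 and 0.381). DESeq2 and limma-voom called SOX9 and LYZ lower at 48 h (DESeq2 adjusted p = 0.0031 and 0.00734), where they called 2.88% and 1.95% of the genes with an adjusted p. Of the 4 fibroblast markers tested, COL1A2 was higher at 24 h at an unadjusted p under 0.05 (log2 difference 2.30 ± 0.97, SE; edgeR adjusted p = 0.872). The 6 fibroblast markers summed to 7.59, 2.13 and 7.44 CPM with DMSO and to 22.2, 14.6 and 15.2 CPM with Molidustat at 48 h, which did not overlap, and at 24 h the sums overlapped. The 1 endothelial marker tested, PECAM1, differed by 0.48 ± 1.70 at 24 h and -1.19 ± 1.69 at 48 h. The part of the markers in the members' values was not tested. In bulk RNA, fewer cells of a type and less RNA per cell cannot be told apart.

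Promoters of the tested members were searched on both strands for 3 short motifs, from 250 bases before to 50 bases after the start of the gene (RefSeq, GRCh38), which 30 of the 35 members had. The core of the HIF element is ACGTG or GCGTG, and the latter is also the core of the AHR element. ACGTG was in 5 of 30 (16.7%, against 21.6% of 27305 promoters), GCGTG in 12 (40.0% against 36.3%) and either of them in 14 (46.7% against 48.4%). The third motif, TGACNNNGC, the core of the antioxidant element of NRF2, was in 7 (23.3% against 13.6%). A promoter can hold more than 1 of the motifs, and a match is a description of letters only.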

How the data were processed

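RNA was sequenced from the 3′ end of polyadenylated transcripts in 12 libraries. The authors aligned the reads with STAR 2.7.9a to GRCh38 and counted them per gene with HTSeq 0.11.2 (bcl2fastq 2.17.1.14 and cutadapt 1.9.1 are named in the submitters' processing notes), and the deposited files hold the raw counts of each gene, as whole numbers. The annotation release, the strand setting and the use of molecular identifiers are not given in the sources used here, so PCR copies may be among the counts, and limits from 3 counts cover counting error only. The 5 summary lines that name no gene were left out of library sizes, and reads on no feature were 17.1 to 50.4% of the listed reads. The summary lines for low quality and for several places held the same number in 12 of 12 libraries.

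Samples were grouped by treatment and time from the labels. The analysis used edgeR 4.0.16 in R 4.3.3: filterByExpr (minimum count 10, minimum total count 15) kept 14274 of the 28430 genes with a count, libraries were scaled by TMM, and a quasi-likelihood model with group as the factor was fitted over all 12 libraries. Benjamini-Hochberg adjustment ran over all genes tested, and a call needed a log2 fold change beyond 1 with an adjusted p under 0.05. Standard errors came from the fold change and the F statistic. The fit was also run on simulated data, and no result given here rests on that run.

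Gene coordinates, exons and transcript ends are those of GENCODE release 44 on GRCh38, and promoters those of RefSeq. Members were chosen for description where they were called, where they passed an unadjusted p under 0.05 with Molidustat, or where they were among the 2 most abundant tested members of a family. Other members named (such as GSTM2 and SULT1A2) were added after their values were seen. A few items are not reported here. The members and the lists were chosen with earlier results of these data known.

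Alternatives were DESeq2 1.42.0, RLE factors or total counts, no filter or at least 10 counts in every library, only the groups compared, no threshold on the fold change, the replicate number as a block, limma-voom (limma 3.58.1) with sample quality weights, each library left out, and, added after seeing the data, the UGT1A and UGT2A genes counted once. Figures were made with matplotlib 3.10.9 (Python 3.11.15).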

Additional observations from a re-analysis of the deposited data

How the results depend on the processing

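Of the settings run in the 5 comparisons (the difference of the responses cannot be had from only the groups compared), 2 called a member: at 24 h, DESeq2 and edgeR without a filter on low counts each called 1 member higher, UGT2B7, with adjusted p-values of 0.00954 and 0.00573. DESeq2 called 1.03% of the genes it gave an adjusted p at 24 h, and the share without a filter is not given here. For the partner lists at 48 h, DESeq2 called 3 genes higher, limma-voom 3 higher and 1 lower, and no filter 1 higher (NR0B2) and 2 lower (HNF4A and UGDH). Of all genes with an adjusted p at 48 h, DESeq2 called 2.88% and limma-voom 1.95%, and the share without a filter is not given here. With 1 library left out, 0 to 1 partner genes were called higher, the 1 (NR0B2) without DMSO 48 h replicate 3.

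With at least 10 counts in every library the median log2 difference of the members was 0.17 at 48 h, 0.12 for the difference of the responses and 0.19 from 24 h to 48 h in Molidustat. The difference of the responses (-0.84) was -0.21 by limma-voom and -0.051 with the UGT1A and UGT2A genes counted once. Over single libraries left out, the median ranged from -0.12 to 0.45 at 24 h, from -0.67 to -0.12 at 48 h, from -1.04 to -0.16 for the difference of the responses, from -0.63 to 0.27 from 24 h to 48 h in DMSO and from -0.34 to -0.0084 from 24 h to 48 h in Molidustat.

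Among the 22 members chosen for description, these changed sign, none of them called, and the cause was not tested. Total counts gave 0.083 for GSTM4 and 0.33 for SULT1C4 at 48 h. At 24 h, no filter gave 0.00249 for CYP4F3 and 0.0026 for SULT1A1, and at least 10 counts in every library 0.014 for CYP4F3. Limma-voom gave -0.016 for CYP2J2, 0.073 for SULT1A1, -0.80 for UGT2B11 and 0.10 for UGT2B4 at 24 h, and 1.61 for CYP3A5, 0.061 for CYP4F3, -0.0588 for SULT1A1 and 1.63 for SULT1C4 at 48 h. Leaving out single libraries gave, at 24 h, ranges of -0.34 to 0.47 for CYP2J2, -0.41 to 0.18 for CYP4F3, -0.10 to 3.77 for GSTA2, -0.75 to 0.052 for GSTA4, -0.074 to 0.32 for GSTK1, -0.19 to 0.69 for GSTM4, -0.15 to 0.011 for GSTO1, -0.20 to 0.085 for SULT1A1, -0.27 to 0.70 for UGT1A1, -1.94 to 1.30 for UGT2B11 and -0.58 to 0.37 for UGT2B4. At 48 h they were -0.14 to 0.43 for CYP2J2, -0.83 to 0.24 for CYP2R1, -1.62 to 0.78 for CYP3A5, -1.03 to 1.28 for CYP4F12, -1.31 to 0.29 for CYP4F3, -0.24 to 0.13 for GSTM4, -0.16 to 0.65 for SULT1A1 and -0.65 to 1.40 for SULT1C4.

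Libraries with the same replicate number correlated at -0.09 to 0.14 in their deviations from the group means. Libraries of different groups with different numbers correlated at -0.16 to 0.14, so no pairing by number was seen in this measure. With the replicate number as a block 0 members were called, and SULT1C4 at 48 h was 0.11. Low counts limit most members: 47 of 82 could not be tested.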

Other observations

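Of the 79 genes that share a symbol prefix with the members but are not protein-coding, 16 had a count and 3 had at least 10 counts in all. The processed pseudogene GSTO3P had 123 counts, with group means of 1.97 CPM in DMSO 24 h, 2.22 CPM in Molidustat 24 h, 1.67 CPM in DMSO 48 h and 2.06 CPM in Molidustat 48 h. CYP2U1-AS1, an antisense RNA, had 21 counts, and GSTA6P had 12.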
